A study of Mus musculus with 8 samples.

Results

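The T cell receptor alpha chains described here are the productive TRA contigs whose joining segment is any TRAJ except TRAJ18, ordered by their place in the TRAJ array from TRAJ58 at the 5′ end to TRAJ2 at the 3′ end. They number 5398 of the 5997 productive TRA contigs and of 12792 TRA and TRB contigs in all, and 599 TRAJ18 contigs were left out by definition. The cells were sorted as CD45+ from brain parenchyma of C57BL/6 mice of the 5xFAD line, whose human amyloid precursor protein and presenilin transgenes are driven by a neuronal promoter. The series asks what the chemokine receptor CXCR6 does for T cells resident in the brain, and it compares 5xFAD mice with 5xFAD;Cxcr6-/- mice, called the knockout below. Both groups carry the 5xFAD transgenes, and age, sex and the number of mice per library are not in the labels. Each genotype had 2 T cell receptor libraries, and nothing says that the libraries of a genotype came from separate mice, so every p-value measures only the spread between these libraries. The labels also list gene expression libraries of both genotypes, which were not analysed here, so Cxcr6 and the markers of the sorted cells were not checked and CD4 and CD8 T cells were not separated.

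The alpha chain locus rearranges in thymocytes, where a TRAV segment is joined to a TRAJ segment through recombination signals and the bases at the joint are trimmed and added to. A thymocyte can rearrange the same allele repeatedly, each time joining a TRAV further 5′ to a TRAJ further 3′, and early joints use 3′ TRAV and 5′ TRAJ segments. The TRAJ segment gives the 3′ end of the CDR3, the loop that contacts peptide, up to a conserved phenylalanine or tryptophan that is followed by glycine, any residue and glycine.

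The array runs over 60.6 kb of mouse chromosome 14 (GRCm38, forward strand). Germline segments were read from the GENCODE vM21 transcripts of that build, and the capitals mark the anchor codon, at which the CDR3 ends, with the 9 bases after it. The outermost segments, both of them used, are shown to fix the direction of the array. TRAJ58 lies at chr14:54157280-54157342 and TRAJ2 at chr14:54217836-54217901.
TRAJ58: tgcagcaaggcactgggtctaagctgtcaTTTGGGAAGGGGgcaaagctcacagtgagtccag
TRAJ2: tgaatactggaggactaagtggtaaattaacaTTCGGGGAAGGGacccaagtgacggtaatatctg
The most used segments, TRAJ22 (chr14:54197248-54197307) and TRAJ31 (chr14:54187895-54187951), follow, with TRAJ53 (chr14:54162644-54162709), whose chains had the longest mean CDR3.
TRAJ22: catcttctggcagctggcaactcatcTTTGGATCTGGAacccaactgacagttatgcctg
TRAJ31: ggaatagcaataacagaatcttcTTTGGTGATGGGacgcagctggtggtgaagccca
TRAJ53: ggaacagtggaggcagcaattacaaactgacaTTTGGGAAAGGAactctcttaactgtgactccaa
TRAJ44 (chr14:54173690-54173750) and TRAJ7 (chr14:54211470-54211528) were used although their anchor codon is TTG, which encodes leucine.
TRAJ44: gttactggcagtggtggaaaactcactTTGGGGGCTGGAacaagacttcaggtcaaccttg
TRAJ7: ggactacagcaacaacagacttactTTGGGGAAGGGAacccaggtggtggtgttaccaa
Of the segments that no chain used, TRAJ25 (chr14:54194815-54194871) has an intact motif, TRAJ46 (chr14:54172336-54172398) has the motif out of frame and TRAJ3 (chr14:54217292-54217357) has none.
TRAJ25: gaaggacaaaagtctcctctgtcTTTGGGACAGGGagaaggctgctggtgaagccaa
TRAJ46: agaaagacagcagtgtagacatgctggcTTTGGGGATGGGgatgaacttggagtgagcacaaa
TRAJ3: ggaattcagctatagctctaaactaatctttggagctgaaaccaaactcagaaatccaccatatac

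Each distinct alpha chain of a deposited clonotype was counted once, as a clone chain, so clone size had no weight. There were 952 and 1228 clone chains in the 5xFAD libraries, with 502 and 948 in the knockout libraries, 3630 in all, from 3264 clonotypes. The libraries held 2069, 2522, 765 and 1330 cell barcodes, in the same order, and the median contig rested on 4 UMIs in each. Contigs with a single UMI made up 6.92% to 10.2% of a library's contigs. The share of TRA contigs that belonged to the array without TRAJ18 was 83.5% and 90.5% in the 5xFAD libraries, with 94.4% and 96.0% in the knockout libraries. A total of 28 of 6686 barcodes occurred in more than 1 library, and in 0 of them did both libraries hold the same chain.

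Of the 56 numbered segments from TRAJ58 to TRAJ2 without TRAJ18, 42 were used, and all 42 were found in each of the 4 libraries. The 14 that no chain used were TRAJ55, TRAJ54, TRAJ51, TRAJ46, TRAJ41, TRAJ36, TRAJ29, TRAJ25, TRAJ20, TRAJ19, TRAJ14, TRAJ10, TRAJ8 and TRAJ3. A count of 0 allows a share of up to 0.0826% of the 3630 clone chains, or 0.244% to 0.598% of a single library, and these limits cover counting error only. The annotation lists TRAJ55, TRAJ54, TRAJ51, TRAJ36, TRAJ14 and TRAJ8 as pseudogenes, and TRAJ46, TRAJ41, TRAJ29, TRAJ25, TRAJ20, TRAJ19 and TRAJ3 as ordinary joining genes. TRAJ10 has no entry in it. The coding strand of each segment was searched for a phenylalanine or tryptophan codon (TTT, TTC or TGG) followed by GGNNNNGG. In the reading frame that the used segments share, 40 of 42 used segments held it (95.2%), the exceptions being TRAJ44 and TRAJ7, against 2 of the 13 annotated segments that were not used (15.4%). Those 2 were TRAJ54, a pseudogene, and TRAJ25. Only contigs called productive were read, so a joint to an unused segment in any other contig could not be counted. The contrast in the motif may therefore be set in part by that selection. Recombination signals lie outside the transcript models and were not analysed here.

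The middle of the array was used most, and there was no slope from end to end. TRAJ58 to TRAJ40 gave 26.9% and 26.2% of clone chains in the 5xFAD libraries, with 27.9% and 29.3% in the knockout libraries. TRAJ39 to TRAJ21 gave 49.2%, 51.4%, 50.8% and 50.8%, and TRAJ17 to TRAJ2 gave 23.9%, 22.4%, 21.3% and 19.8%, in the same order. The middle part therefore supplied about as many clone chains as the other parts together in every library. Because the parts hold 14, 16 and 12 used segments, the mean share of a segment was 1.97% in the 5′ part, 3.16% in the middle and 1.82% in the 3′ part. Spearman's rank correlation of a segment's share with its TRAJ number was -0.11 and -0.04 in the 5xFAD libraries, with 0.0030 and 0.10 in the knockout libraries (42 segments of one library each, so the shares in a library sum to a fixed total). The libraries of the genotypes did not overlap in this value (exact two-sided permutation p = 0.333, the smallest that 2 against 2 libraries allow). The rank correlation with the distance from TRAJ30, counted in TRAJ numbers, was between -0.42 and -0.50.

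**Figure D1:**
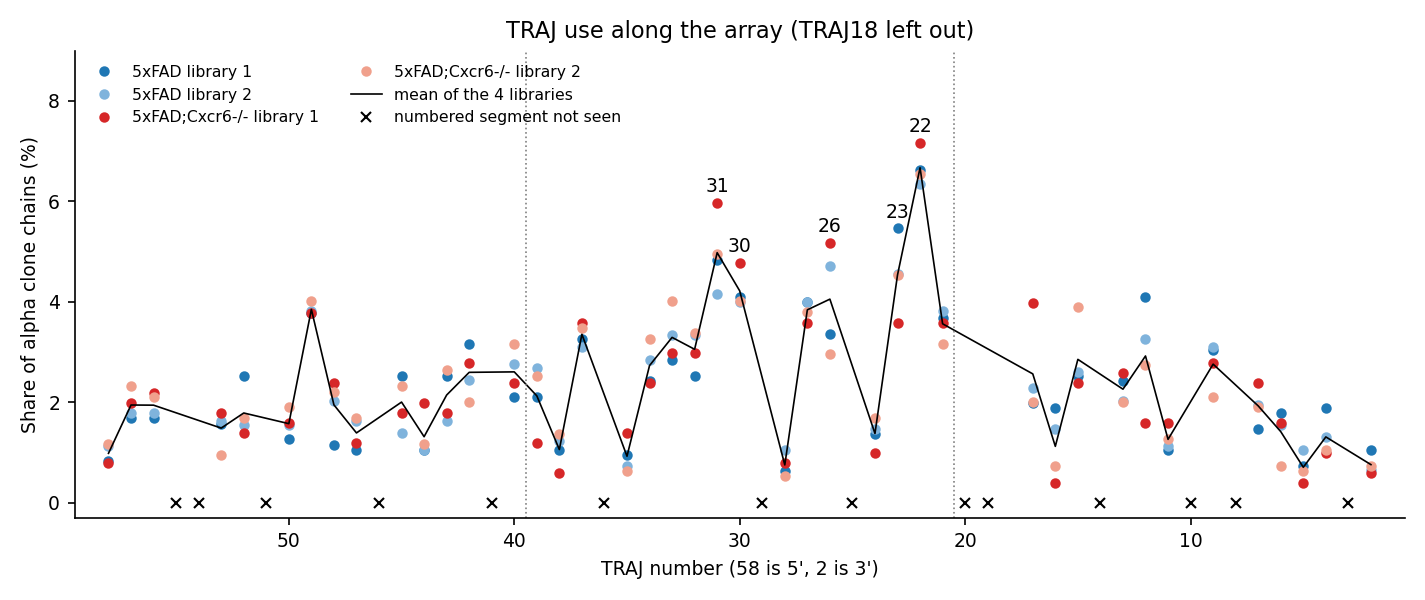
Share of alpha clone chains (y axis, %) of each TRAJ segment in array order (x axis, TRAJ number, 5′ at the left), with a point for each of the 4 libraries, a line through their mean and crosses for the 14 segments no chain used. Dotted lines divide the 5′, middle and 3′ parts, and the highest points, between 6.35% and 7.17%, belong to TRAJ22 in the middle part.

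Neighbouring segments differed by several fold, and the order of the segments was much the same in all libraries. TRAJ22 held 63 of 952, 78 of 1228, 36 of 502 and 62 of 948 clone chains, that is 6.62% and 6.35% in the 5xFAD libraries, with 7.17% and 6.54% in the knockout libraries. TRAJ31 held 4.83%, 4.15%, 5.98% and 4.96%, and TRAJ23 held 5.46%, 4.56%, 3.59% and 4.54%. TRAJ22 was thus above every other segment in each library. TRAJ30 followed with a mean over libraries of 4.22% (range 3.99% to 4.78%) and TRAJ26 with 4.05% (range 2.95% to 5.18%), and the ranges of TRAJ31, TRAJ23, TRAJ30 and TRAJ26 overlapped. At the other end, TRAJ5 had a mean of 0.706%, TRAJ28 of 0.753% and TRAJ2 of 0.759%. TRAJ28 lies between TRAJ30 and TRAJ27, whose means were 4.22% and 3.84%. The 5′ outermost segment, TRAJ58, held 0.840%, 1.14%, 0.797% and 1.16%. The rank correlation of the 42 shares between pairs of libraries was 0.767 to 0.902, and the pairs within a genotype (0.880 and 0.811) did not stand above the pairs across genotypes.

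When cells were counted in place of clone chains, single clones moved the share of their segment. Each cell was counted once per alpha chain. TRAJ22 stood at 6.62% of clone chains and 18.4% of chain and cell pairs in 5xFAD library 1, where a TRAV9D-3 chain joined to TRAJ22 was found in 189 cells, 12.6% of the pairs. In 5xFAD library 2, TRAJ27 stood at 3.99% of clone chains and 7.21% of pairs, with 68 cells in its largest clone. In knockout library 1, TRAJ17 stood at 3.98% and 10.0%, with 47 cells carrying the chain of the largest clone, and in knockout library 2 TRAJ52 stood at 1.69% and 4.85%, with 26 such cells. Over the 42 segments, the rank correlation of clone share and cell share was 0.942, 0.806, 0.946 and 0.900. The CDR3 nucleotides of these 4 chains are shown with the stretch that matches the germline TRAJ in capitals.
TRAV9D-3 with TRAJ22, 5xFAD library 1: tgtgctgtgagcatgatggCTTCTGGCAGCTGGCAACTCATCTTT
TRAV16D-DV11 with TRAJ27, 5xFAD library 2: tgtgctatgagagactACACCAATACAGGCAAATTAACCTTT
TRAV6N-7 with TRAJ17, knockout library 1: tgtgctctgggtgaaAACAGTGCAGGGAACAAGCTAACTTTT
TRAV10 with TRAJ52, knockout library 2: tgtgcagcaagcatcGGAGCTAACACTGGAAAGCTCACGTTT
The germline ends of these joints were trimmed by 3, 2, 5 and 8 bases, in that order.

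**Figure D2:**
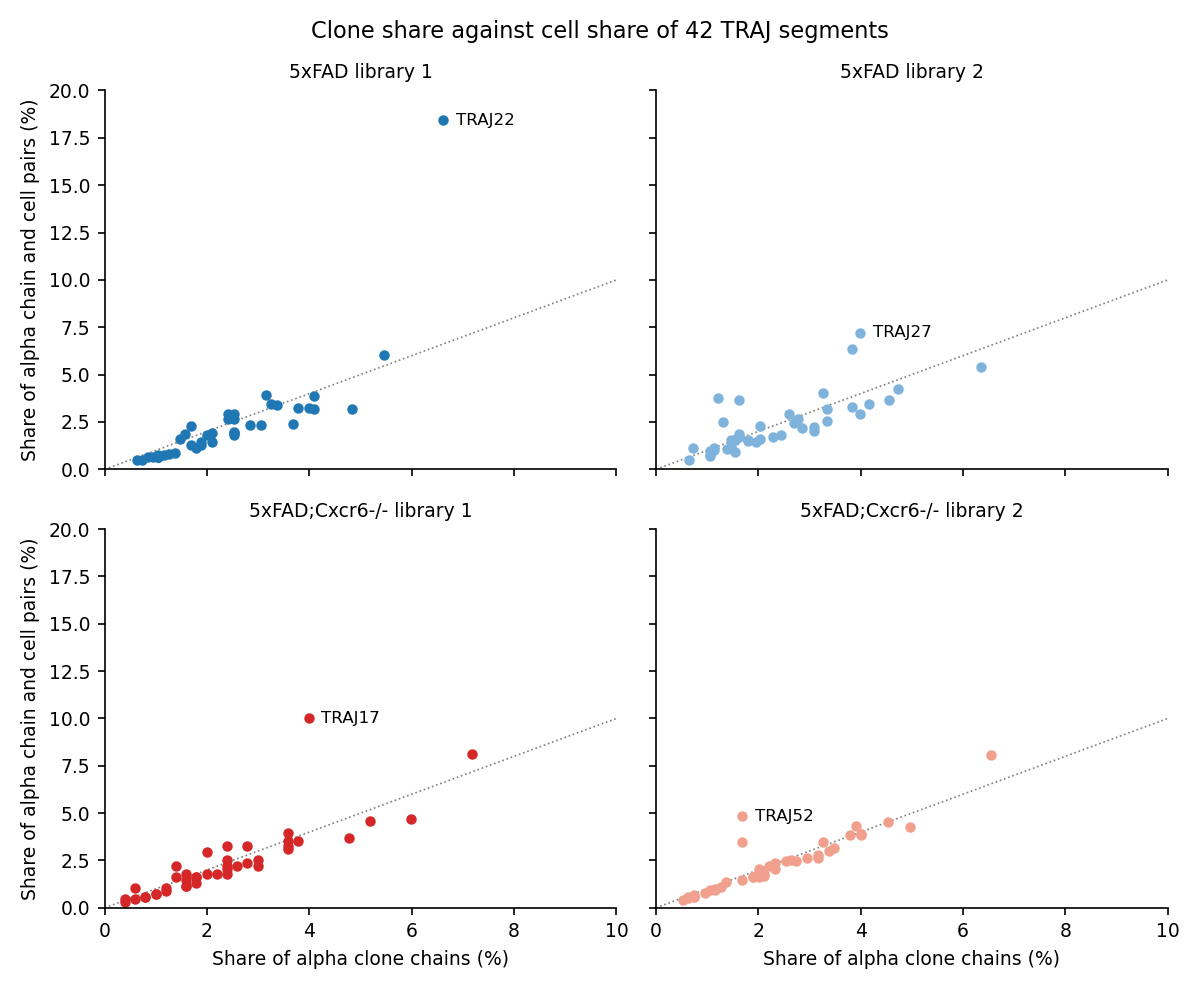
Share of alpha chain and cell pairs (y axis, %) against share of clone chains (x axis, %) for the 42 used TRAJ segments, with a panel for each library and a dotted line of equal shares. In each panel the named segment, which holds the library's largest clone, lies furthest above the line, with TRAJ22 at 18.4% of pairs in 5xFAD library 1.

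The TRAJ number went with the place of the TRAV partner on the chromosome, and only weakly with the TRAV number. Clone chains used 88 TRAV genes, which lie between 280.5 kb and 1728 kb 5′ of TRAJ58. Within a library, Spearman's rank correlation of TRAJ number with TRAV number over clone chains was 0.106 and 0.114 in the 5xFAD libraries, with 0.238 and 0.116 in the knockout libraries. With the annotated position of the TRAV gene in place of its number, the rank correlation was 0.439, 0.446, 0.562 and 0.439. TRAV numbers follow the chromosome only loosely (rank correlation 0.277 over the 88 genes), because mouse TRAV families were copied in blocks, and the copies carry the same number at different places. Chains of a library share its cells and many share a TRAV gene, so these values describe the libraries and carry no p-value. For the comparison between genotypes, the rank correlation with the TRAV number was higher in the knockout libraries by 0.067 (mean 0.110 ± 0.00580 and 0.177 ± 0.0866, SD, n = 2 each, exact two-sided permutation p = 0.333, the smallest that 2 against 2 libraries allow). The difference rested on knockout library 1, without which it was 0.00589, and with the annotated position the genotypes overlapped (exact permutation p = 0.667).

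TRAV genes nearest the array were joined to its 5′ end. TRAV21-DV12, the nearest at 280.5 kb, had a mean TRAJ number of 50.2 and 51.3 in the 5xFAD libraries, with 51.1 and 46.2 in the knockout libraries (15, 18, 9 and 12 clone chains). TRAV19 had 47.8, 49.1, 50.6 and 48.0. TRAV17 had 46.8, 46.0, 44.4 and 43.1. At the far end, TRAV1 had 30.7, 28.4, 18 and 23.2 and TRAV2 had 22.2, 13, 18 and 19.6, from 2 to 12 clone chains a library. The lowest library mean of TRAV17, TRAV19 and TRAV21-DV12 was thus above the highest of TRAV1 and TRAV2. Of the TRAV1 chains, 3 of 9 and 7 of 12 in the 5xFAD libraries were joined to TRAJ33, against 0 of 7 and 0 of 6 in the knockout libraries. The TRAV1 means were not calculated without that pair.

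The relation was steep among the TRAV genes closest to the array and weak beyond them. The 65 TRAV genes with at least 20 clone chains were divided by distance at 763 kb and 1246 kb. Over the 30 genes nearest the array, the rank correlation of position with mean TRAJ number was 0.949, and the mean fell from 49.8 to 24.3. Over the 21 genes of the middle stretch the rank correlation was 0.448, with means between 18.6 and 26.8, and over the 14 farthest genes it was 0.191, with means between 19.9 and 29.8. The chain-level rank correlation within libraries was 0.451, 0.487, 0.529 and 0.396 in the near stretch, and between -0.01 and 0.05 in the far one. The far stretch did not have the lowest TRAJ numbers, since its mean over all chains was 25.7 (SD 12.3, 571 chains) against 23.6 (SD 12.5, 1216 chains) in the middle stretch and 35.8 (SD 13.3, 1843 chains) in the near one. The middle stretch was below the far one in 5xFAD libraries 1 and 2 and in knockout library 2, and above it in knockout library 1.

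Copies of a TRAV family with the same number showed the same dependence on position. TRAV6-7-DV9, 447 kb from TRAJ58, had a mean TRAJ number of 43.0 over 84 clone chains, and TRAV6-1, 1518 kb away, had 20.8 over 22, with a rank correlation of 0.95 over 9 copies. TRAV14-3 at 394 kb had 47.0 over 52 clone chains and TRAV14D-1 at 1301 kb had 24.5 over 63 (rank correlation 0.821 over 7 copies). TRAV13-4-DV7 at 399 kb had 44.2 and TRAV13D-2 at 1214 kb had 22.5 (rank correlation 0.943 over 6 copies). The rank correlation over the copies was 0.900 in TRAV12 and 0.800 in TRAV4, and lower in TRAV9 (0.543), TRAV7 (0.450) and TRAV8 (0.200), where the nearest TRAV8 copy lay at 687 kb. Copies named with D or N are close in sequence to others, and a contig assigned to the wrong copy would change its distance. Without them, the rank correlation with annotated position over the remaining 1986 clone chains was 0.478, 0.505, 0.590 and 0.448 in the 4 libraries. With the TRAV number it was 0.254, 0.229, 0.355 and 0.198 over those chains, higher in each library than over all clone chains.

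**Figure D3:**
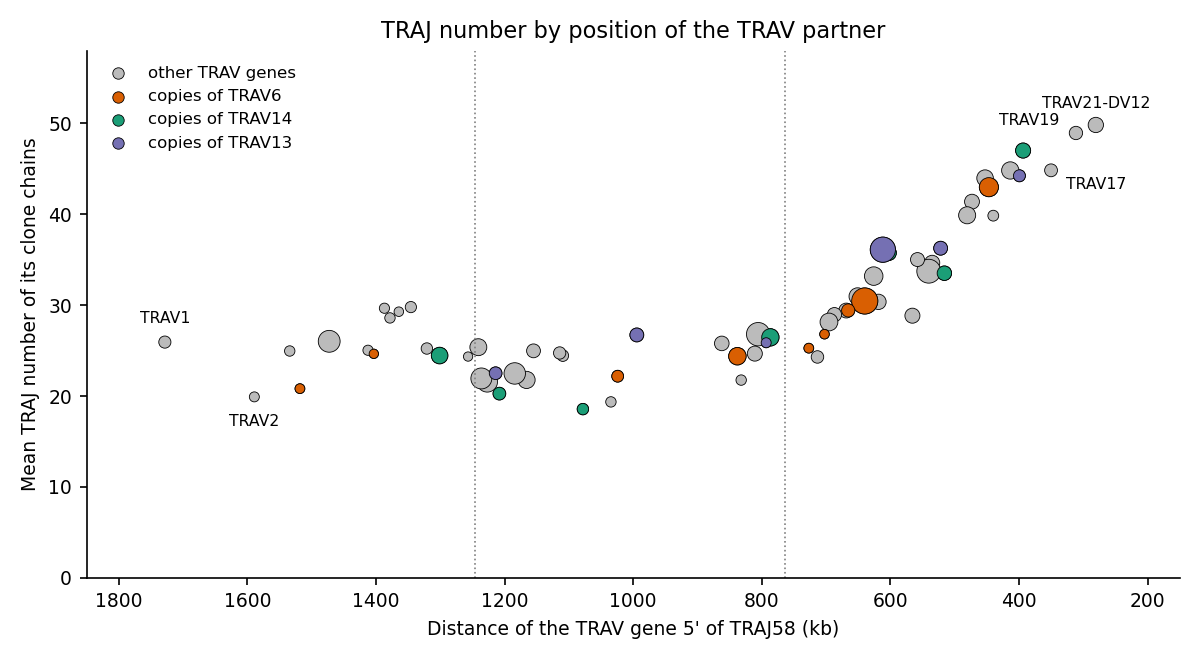
Mean TRAJ number of clone chains (y axis) for each of 65 TRAV genes against its distance 5′ of TRAJ58 (x axis, kb, with the array to the right), with point area in proportion to the clone chains pooled over 4 libraries and copies of TRAV6, TRAV13 and TRAV14 in colour. Dotted lines mark 763 kb and 1246 kb, and the mean TRAJ number falls from 49.8 to 24.3 between the nearest genes and 763 kb and lies between 18.6 and 29.8 beyond.

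Seen from the TRAJ side, 75.8%, 80.1%, 83.6% and 72.7% of the clone chains of the 5′ part used a TRAV of the near stretch, in the order 5xFAD libraries 1 and 2 and knockout libraries 1 and 2. Of the chains of the 3′ part, 21.9%, 26.9%, 22.4% and 23.4% did. The mean TRAV distance of the 5′ part was 661, 634, 580 and 674 kb, and that of the 3′ part was 1027, 1014, 1079 and 1042 kb. The rank correlation of the mean TRAV distance with the TRAJ number over the 42 segments was -0.90, -0.83, -0.94 and -0.90.

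In clones with a pair of alpha chains, both chains tended to use nearby TRAJ segments. There were 111 and 121 such clonotypes in the 5xFAD libraries, with 50 and 84 in the knockout libraries, 366 in all. The mean distance between their TRAJ numbers was 9.99, 9.36, 8.86 and 9.20, against 16.43, 16.17, 16.002 and 15.98 over all pairs of clone chains of the same library. Both chains fell in the same part of the array in 55.9%, 61.2%, 62.0% and 61.9% of these clonotypes, against the 37.1% to 38.4% that the parts' shares alone give. The rank correlation of the paired TRAJ numbers was 0.544, 0.560, 0.635 and 0.555, with each pair entered in both orders. The genotypes' correlations overlapped. Both chains used the same TRAJ in 6, 8, 4 and 4 clonotypes. No doublet caller was run, and a droplet that held a pair of cells can also give a pair of alpha chains. Of the 366 clonotypes, 61 had 2 or more beta chains as well, and their mean distance was 13.5, 15.1, 10.3 and 14.2 (21, 22, 6 and 12 clonotypes). In the 305 with 1 beta chain the mean distance was 9.18, 8.08, 8.66 and 8.38, and the same part of the array was used in 58.9%, 65.7%, 63.6% and 65.3%. Where such a clonotype was also found in 2 or more cells, the distance was 13.2, 9.40, 5.00 and 9.54 (18, 35, 7 and 13 clonotypes), below the value over all pairs of chains in each library.

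CDR3 length followed the length that the germline TRAJ brings. The mean CDR3 was 40.9 and 41.0 nucleotides in the 5xFAD libraries, with 41.0 and 40.8 in the knockout libraries, with an SD of 4.04 to 4.19 within a library. The genotype difference was -0.03 nucleotides (knockout minus 5xFAD), with overlapping libraries and an exact permutation p of 0.667. The germline part inside the CDR3, through the anchor codon, ranged from 26 to 35 nucleotides over the 42 segments. Mean CDR3 length rose with it from 38.3 nucleotides (SD 3.44, 635 clone chains) in the 6 segments with 26 to 45.3 (SD 3.67, 259 clone chains) in the 4 segments with 35, by 0.748 nucleotides per germline nucleotide (rank correlation 0.920 over 42 segments). The library means of those groups, 37.9 to 38.5 and 44.9 to 45.7, did not overlap. TRAJ identity accounted for 25.7% of the variance of CDR3 length.

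TRAJ53 had the longest CDR3s, at 46.3 nucleotides (SD 3.51, library means 45.7 to 47.3), followed by TRAJ28 and TRAJ32, both at 45.1. TRAJ31 had the shortest, at 37.6 (SD 3.69, library means 36.7 to 38.5), followed by TRAJ43 at 37.8 and TRAJ33 at 38.0. TRAJ33 forms the invariant alpha chain of mucosal-associated invariant T (MAIT) cells together with TRAV1. That pair made up 3 of 27 TRAJ33 clone chains and 7 of 41 in the 5xFAD libraries, and 0 of 15 and 0 of 38 in the knockout libraries, where a count of 0 allows up to 20% and 7.89%.

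Trimming and the rest of the CDR3 differed little between libraries. The TRAJ end had lost 2.93, 2.80, 2.78 and 2.88 nucleotides on average, and the remaining part, from the TRAV segment and the joint, had 14.4 nucleotides in all 4 libraries. Longer segments tended to be trimmed more, though not at each step. The mean loss was 2.47 nucleotides in the segments with 26 germline nucleotides, 2.36 with 27, 2.09 with 28 and 4.07 with 35 (rank correlation of segment mean trimming and germline part 0.610). Untrimmed ends made up 15.4% of the clone chains of the 5′ part, 26.6% of the middle and 29.2% of the 3′ part. The 5′ part had the lowest share in every library (11.7%, 18.6%, 14.3% and 15.5%).

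**Figure D4:**
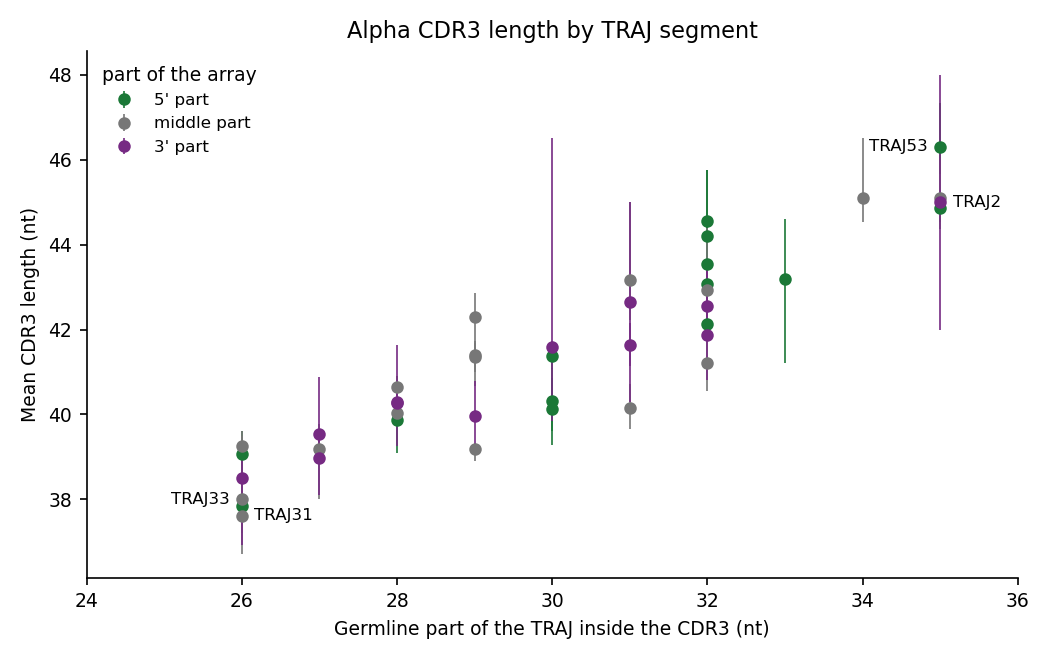
Mean CDR3 length (y axis, nucleotides) against the germline part of the TRAJ inside the CDR3 (x axis, nucleotides) for the 42 used segments, with the mean over all clone chains as a point and the lowest and highest library mean as a bar. Lengths rise from 37.6 nucleotides in TRAJ31 to 46.3 in TRAJ53, and segments of the 5′, middle and 3′ parts are mixed along the x axis.

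Identical alpha chains in several libraries were rare and less trimmed than the rest. Of 3473 distinct chains (same TRAV, TRAJ and CDR3 nucleotides), 35 occurred in 2 or more libraries (1.01%), 2 in 3 libraries and 0 in all 4. TRAJ22 supplied 9 of the 35, out of 211 distinct TRAJ22 chains. The shared chains had lost 1.40 nucleotides of the TRAJ on average, against 2.88 in chains of a single library, and their mean lengths were 40.8 and 40.9 nucleotides. Segments were pooled here, and trimming was not compared within a segment. Both chains found in 3 libraries are shown, with the germline TRAJ match in capitals.
TRAV14N-3 with TRAJ22: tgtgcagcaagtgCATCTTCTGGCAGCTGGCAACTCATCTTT
TRAV14D-1 with TRAJ26: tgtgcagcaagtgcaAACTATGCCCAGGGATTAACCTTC
The TRAV14N-3 chain kept all 29 germline nucleotides of TRAJ22 and was found in 6 clones, each of its 6 cells in a clone of its own.

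Between genotypes, no TRAJ segment passed the test, and the smallest p-values belonged to a pair of 3′ segments that were less frequent in the knockout libraries. edgeR's quasi-likelihood test, run over 151 TRA and TRB segments with Benjamini-Hochberg adjustment and a threshold of 0.05, called 0 of 42 TRAJ segments, with a background of 0% of all segments. At an unadjusted p under 0.05 it gave 2 TRAJ segments of 42, against 6.62% of all segments. DESeq2 gave 0 TRAJ segments at either level, against 0 of all 151 segments adjusted and 1 unadjusted. The median log2 fold change (knockout over 5xFAD) was 0.06 over the TRAJ segments and 0.04 over all 151.

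TRAJ16 made up 1.89% and 1.47% of clone chains in the 5xFAD libraries (18 chains each) and 0.398% and 0.738% in the knockout libraries (2 and 7 chains). The fitted log2 fold change was -1.39, with an SE of 0.53 (edgeR adjusted p = 0.407, 0.336 to 0.997 over the alternatives). It was -1.15 without knockout library 1 and -2.01 without knockout library 2. TRAJ12 made up 4.10% and 3.26% against 1.59% and 2.74%, a log2 fold change of -0.63 ± 0.29 (edgeR adjusted p = 0.704, 0.173 to 0.997 over the alternatives). That value was -0.40 without knockout library 1 and -1.18 without knockout library 2. The libraries of the genotypes did not overlap in either segment. TRAJ6, next by p among the lower segments, had 1.79% and 1.55% against 1.59% and 0.738%. In the other direction TRAJ15 had 2.52% and 2.61% against 2.39% and 3.90%, TRAJ48 had 1.16% and 2.04% against 2.39% and 2.22%, and TRAJ31 had the values given above, all 3 at an edgeR adjusted p of 0.927. TRAJ15 rested on knockout library 2, without which its log2 fold change was -0.10. TRAJ18 chains were left out of the totals behind these values.

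The libraries of the genotypes did not overlap in 16 of 42 TRAJ segments (38.1%), against 34.4% of all 151 segments. TRAJ57, TRAJ56, TRAJ50, TRAJ48, TRAJ44, TRAJ37, TRAJ31 and TRAJ11 were higher in both knockout libraries (19.0%, against 18.5% of all segments). TRAJ27, TRAJ23, TRAJ21, TRAJ16, TRAJ12, TRAJ9, TRAJ5 and TRAJ4 were higher in both 5xFAD libraries (19.0%, against 15.9%). Of the 14 segments of the 5′ part, 10 had the higher mean in the knockout libraries, as had 9 of 16 in the middle and 5 of 12 in the 3′ part. These counts rest on the same shares as the mean TRAJ number that follows, so they are not separate evidence. The same count was not made over all 151 segments. The mean TRAJ number was 29.5 and 29.8 in the 5xFAD libraries, with 30.3 and 31.1 in the knockout libraries, 1.07 higher in the knockout (29.6 ± 0.266 and 30.7 ± 0.569, SD, n = 2 each, exact two-sided permutation p = 0.333, the smallest possible). Weighted by cells it was 29.0, 30.9, 29.6 and 31.4, with overlap between genotypes and a difference of 0.519. With cells in place of clone chains, the difference was below the spread between libraries of a genotype.

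Expanded clones, those of 2 or more cells, were compared with single clones inside each library. There were 147 expanded and 805 single clone chains in 5xFAD library 1, 267 and 961 in 5xFAD library 2, 69 and 433 in knockout library 1 and 111 and 837 in knockout library 2. The mean TRAJ number of expanded and single chains was 31.0 and 29.2, 31.3 and 29.4, 32.4 and 29.97, and 30.4 and 31.2, in that order. Expanded chains thus lay further 5′ by 1.88, 1.85 and 2.48 TRAJ numbers in 3 libraries and further 3′ by 0.83 in knockout library 2. The mean difference was 1.34 (SD 1.48, n = 4, exact sign-flip permutation p = 0.25, the smallest possible being 0.125), and without knockout library 2 it was 2.07. The sign in knockout library 2 depended on how chains were selected. Its difference was 0.51 with clones rebuilt from a shared beta and alpha chain, 0.65 with at least 3 UMIs per chain and 1.23 in cells with 1 alpha and 1 beta chain. In each of those settings all 4 libraries had expanded chains further 5′ (exact sign-flip permutation p = 0.125, the smallest possible). With 3 or more cells as the limit for an expanded clone, knockout library 1 was the exception, at -0.30. The difference was 1.86 on average in the 5xFAD and 0.825 in the knockout libraries, which overlapped (exact permutation p = 1).

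The share of expanded chains in the 5′ part exceeded that of single chains by 1.99, 4.78 and 11.4 percentage points in 5xFAD libraries 1 and 2 and knockout library 1, and was 3.62 points below it in knockout library 2. In knockout library 1 the 5′ part held 26 of 69 expanded chains (37.7%, 95% Clopper-Pearson interval 26.3% to 50.2%) and 26.3% of single chains. In the 3′ part the share of expanded chains minus that of single chains was -3.38 and -5.17 points for 5xFAD, against 0.49 and 2.03 points for the knockout. Expanded and single chains differed in mean CDR3 length by 0.42, 0.15, -0.25 and -0.51 nucleotides (exact sign-flip permutation p = 0.875). Both 5xFAD libraries were above 0 and both knockout libraries below it, with means of 0.28 and -0.38. Any such split gives the smallest possible p (exact two-sided permutation p = 0.333).

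**Figure D5:**
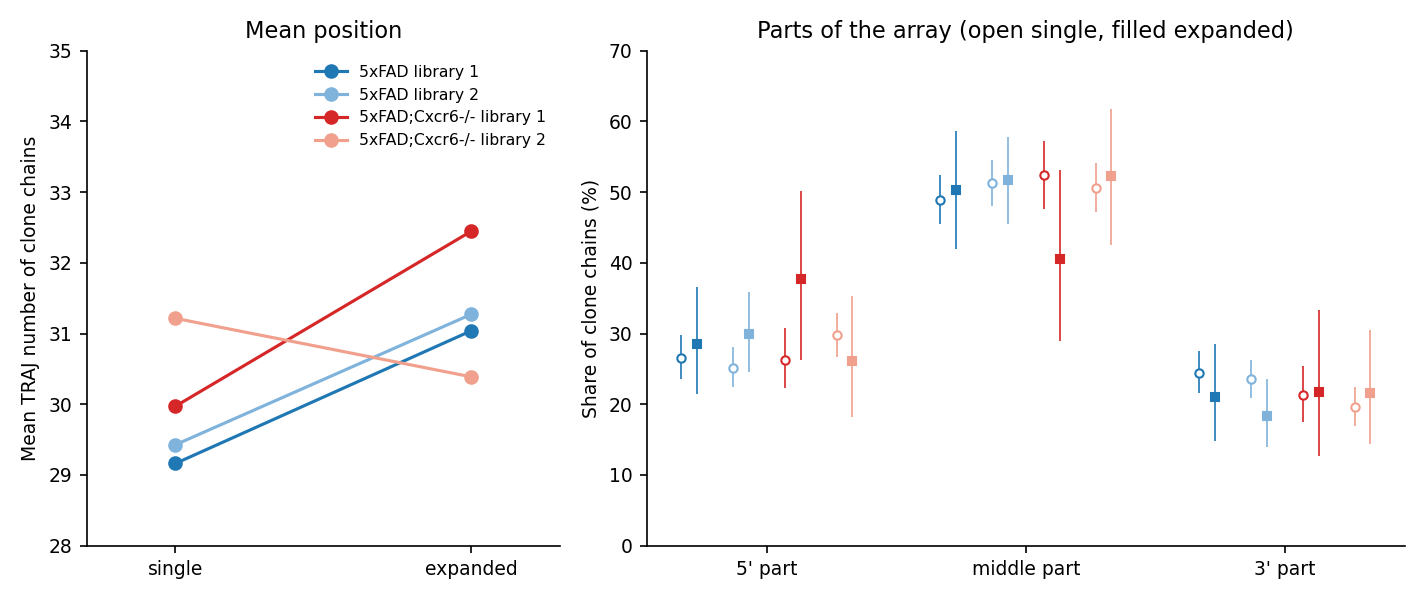
Left, mean TRAJ number of single and expanded clone chains in each library. Right, share of clone chains (y axis, %) in the 5′, middle and 3′ parts of the array, open circles for single and filled squares for expanded chains, with 95% Clopper-Pearson intervals. Expanded chains lie higher by 1.85 to 2.48 TRAJ numbers in 3 libraries and lower by 0.83 in 5xFAD;Cxcr6-/- library 2, and the intervals of expanded chains are wide.

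No TRAJ segment passed the edgeR test of expanded against single clones (0 of 42 at an adjusted p under 0.05, with a background of 0% of 151 segments). At an unadjusted p under 0.05 edgeR gave 3 TRAJ segments, against 6.62% of all segments, and DESeq2 gave 1, against 4 of all 151 segments. The smallest p belonged to TRAJ6, of which 0 of 17, 0 of 19 and 0 of 8 chains were expanded in 5xFAD libraries 1 and 2 and knockout library 1, and 1 of 7 in knockout library 2. The single chains of these libraries used TRAJ6 at 2.11%, 1.98%, 1.85% and 0.717%, and the 0 counts allow up to 2.04%, 1.12% and 4.35% of expanded chains. In knockout library 2 the direction was the other, with 0.90% of expanded chains. The fitted log2 fold change was -3.16, with an SE of 1.11 (edgeR adjusted p = 0.188, 0.0483 to 0.972 over the alternatives). It was -2.24 without 5xFAD library 2 and -6.18 without knockout library 2, the latter a value that depends on the prior count because no expanded TRAJ6 chain is then left. TRAJ6 was called in a single alternative, with clones rebuilt from identical chains.

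TRAJ49 was more frequent among expanded chains in 4 of 4 libraries, at 5.44%, 5.62%, 5.80% and 6.31% against 3.48%, 3.33%, 3.46% and 3.70% of single chains (log2 fold change 0.72 ± 0.30, edgeR adjusted p = 0.415). TRAJ31 was less frequent in 4 of 4, at 1.36%, 4.12%, 2.90% and 2.70% against 5.47%, 4.16%, 6.47% and 5.26% (log2 fold change -0.73 ± 0.34, edgeR adjusted p = 0.547), and the value was -0.44 without 5xFAD library 1 and -1.37 without 5xFAD library 2. TRAJ12 and TRAJ52, next among the higher segments, had log2 fold changes of 0.65 and 0.86, and TRAJ58, next among the lower, had 2 expanded and 35 single chains (edgeR adjusted p = 0.722 for all 3). Expanded chains had the higher share in 4 of 4 libraries in 5 of 42 segments (11.9%, against 8.61% of all segments) and the lower share in 4 of 4 in 3 (7.14%, against 10.6%). For the difference of this contrast between genotypes, edgeR gave 0 TRAJ segments at an adjusted p under 0.05 (background 0%). It gave 0 at an unadjusted p under 0.05 (3.97% of all segments). DESeq2 gave 0 TRAJ segments at either level, against 0 of all 151 segments adjusted and 1 unadjusted.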

How the data were processed

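Productive TRA contigs were taken from the deposited annotation tables of the 4 T cell receptor libraries, which list whole-number counts of reads and UMIs per contig that the authors deposited without normalization, per the file headers. Per the labels' protocols the kit was 10x Immune Profiling v2, and Cell Ranger 6.0 and mm10 are named in the submitters' processing notes. Members and lists were chosen with earlier results of these data known. A clone was a deposited clonotype, an expanded clone had 2 or more cells, and every distinct alpha chain of a clone counted once. Array and TRAV positions came from GENCODE vM21 (GRCm38, the build that mm10 names), matching 88 of 88 TRAV genes and 42 of 42 TRAJ segments seen. The CDR3 end in each germline TRAJ was the place that kept the longest mean match to the chains, and trimming was the number of germline bases lost before it.

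Segment counts were tested with edgeR 4.0.16 (quasi-likelihood, R 4.3.3), with the log of the alpha or beta clone chain total as offset, over the 151 TRA and TRB segments with at least 10 clone chains. The SE is the log2 fold change divided by the square root of F. Expanded and single clones were fitted with the library as a block. No doublet caller was run. DESeq2 1.42.0, other scalings, filters and clone definitions were alternatives. Library values were compared by exact permutation in Python 3.11.15. The edgeR fit of the genotype comparison was tested on simulated counts, and the fits of expanded against single clones and DESeq2 were not. Named segments were the 5 most and 3 least used, all unused ones, the outermost ones seen, those called, the 3 higher and 3 lower ones of smallest p in the genotype and expansion tests, TRAJ33, the 3 with the longest and the 3 with the shortest CDR3 and those of the largest clones. TRAV genes, TRAJ44, TRAJ7 and the segments listed only for not overlapping or for the motif were named after their values were seen. Shares of a single library carry counting error only, and PCR copies of a molecule are not independent.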

Additional observations from a re-analysis of the deposited data

Results flagged for a closer look

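The quantities screened were the mean TRAJ number, the mean CDR3 length and the shares of the 5′, middle and 3′ parts. The shares of the parts sum to a fixed total, so they are not independent. Expanded and single clone chains differed in opposite directions in the 2 genotypes in 2 of these quantities, and the others did not split by genotype. In mean CDR3 length the difference (expanded minus single) was 0.42 and 0.15 nucleotides for 5xFAD, against -0.25 and -0.51 for the knockout, and the knockout mean minus the 5xFAD mean was -0.665 nucleotides. In the share of the 3′ part it was -3.38 and -5.17 percentage points for 5xFAD, against 0.49 and 2.03 for the knockout, and the knockout mean was higher by 5.53 points. Both differences between genotypes had an exact two-sided permutation p of 0.333, the smallest that 2 against 2 libraries allow. The screen kept only quantities in which the sign split the libraries by genotype, so this p was fixed by the screen.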

How the results depend on the processing

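Over 265 combinations of a result and an alternative, 260 kept the direction and the side of the threshold of the reported value. Part of this agreement was fixed in advance. The exact tests cannot give a p under 0.125, so only their direction could change. Counts of called segments have no direction, and they were taken as the same whenever 0 were called. With clones rebuilt from a shared TRB and alpha chain, 1 TRAJ segment was called in the comparison of expanded with single clones, TRAJ6, at an edgeR adjusted p of 0.0483 and a fitted log2 fold change of -5.85, a value that depends on the prior count because 0 expanded and 45 single TRAJ6 chains are left in that setting. The cause was not tested. The genotype difference in CDR3 length was between -0.111 and 0.0530 nucleotides with each library left out in turn, so its sign was not stable. It was -0.456 with TRAJ18 chains kept (exact permutation p = 0.333) and -0.334 with cells in place of clone chains, against -0.029 as reported. TRAJ15 had log2 fold changes of -0.103 to 0.601 between genotypes with each library left out. TRAJ18 chains, kept in the totals, raised the genotype difference in mean TRAJ number from 1.07 to 2.30 and moved the median log2 fold change of all segments by 0.11 in the genotype test and 0.12 in the expansion test, and TMM scaling moved the latter by -0.23. Without knockout library 2 the genotype difference in mean TRAJ number was 0.672. Same-numbered libraries of the genotypes showed no shared deviations in segment use (correlation -0.053 over 151 segments). Libraries handled as a pair need not share such deviations, so whether the replicate numbers pair the libraries was not settled. A replicate block left 0 TRAJ segments called between genotypes, 1 at an unadjusted p under 0.05. The differences in mean TRAJ number within the numbers were 0.860 and 1.29, 1.07 on average. Leaving out barcodes found in more than 1 library, an alternative chosen after seeing the data, changed no call. The split of clonotypes with a pair of alpha chains by their beta chains and cells was also chosen after seeing the data. With 2 libraries a genotype and 69 expanded chains in the smallest set, shares of single segments among expanded clones have wide intervals.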

Other observations

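TRAJ segments that bring fewer germline nucleotides to the CDR3 tended to be used more. Over the 42 used segments, Spearman's rank correlation of mean clone share with the germline part inside the CDR3 was -0.50, given as a description since the shares sum to a fixed total. Germline length and TRAJ number were themselves weakly related (rank correlation 0.244). The relation of germline length to the distance from TRAJ30, which went with use, was not calculated.

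Clone chains from clonotypes of 5 or more cells numbered 27 and 57 in the 5xFAD libraries, with 13 and 17 in the knockout libraries. Their mean TRAJ number was 31.8, 33.4, 29.2 and 32.3, against 29.2, 29.4, 29.97 and 31.2 in clonotypes of 1 cell. Expanded chains as a whole lay further 5′ than single ones by 2.48 in knockout library 1 and further 3′ by 0.83 in knockout library 2, and with 5 or more cells both signs were the other way (-0.74 and 1.08), from 13 and 17 chains.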
